A study of Homo sapiens with 2 samples.

Results

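In H1299 cells, 498 of the 28695 regions called as enriched for lactylated lysine 18 of histone H3 (H3K18la) were at least 5000 bp wide and lay outside dense runs of peaks. They made up 1.74% of the peaks and, with 3.54 Mb of 44.6 Mb, 7.93% of the bases in peaks. Members were chosen on 2 properties of the deposited list, the width of a peak and its distance to other peaks. Of 695 peaks of 5000 bp or more, 197 were left out because they belonged to 1 of 438 domains, runs of 5 or more peaks joined across gaps of 12000 bp or less. The remaining peaks were not all isolated. Only 139 had no other peak within 12000 bp, while 154 lay in a run of 2 peaks, 121 in a run of 3 and 84 in a run of 4. The median distance from a wide peak to the next peak was 4499 bp, and 21 wide peaks were more than 50 kb from any other. They are therefore called wide peaks outside domains below.

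H1299 is an established human non-small cell lung cancer line that lacks the tumour suppressor p53, and the labels state no treatment of it. The series holds 2 libraries from crosslinked H1299 chromatin, 1 immunoprecipitated with an anti-H3K18la antibody from the supplier PTM and 1 input made without antibody. Values below come from the peaks called in the immunoprecipitated library. There were no replicates and no second condition, the read depth is unknown, and peaks of 1 library are not replicates of each other, so every value below is a description of that library without a p-value. Intervals are exact 95% intervals that cover counting error only.

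Lactylation is an acyl mark placed on histone lysines, and lactate, the end product of glycolysis, feeds it. H3K18la has been mapped mainly at active promoters and enhancers, where acetylation of histone H3 is also found. For several active marks, unusually broad stretches are known at genes of cell identity and growth control and at strong enhancers. The width of a called peak also depends on the caller's rule for joining neighbouring stretches of signal, which is not given in the sources used here.

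Promoter sequences show the range of base composition and motifs found under the wide peaks. The 250 bases before a gene start are printed 5′ to 3′ on the gene's strand for 6 genes, from NCBI RefSeq, build GRCh38.p14. Capitals mark matches on either strand to any of 9 short motifs: TATAAA (the TATA box), TGACTCA (bound by AP-1), TGACGT (the core of the cAMP response element), CCAAT (bound by NF-Y), GGGCGG (the GC box), CACGTG (the E-box), GCATGCG (part of the NRF1 motif), CCGGAAG (bound by ETS factors) and GGAATG (bound by TEAD factors). DCBLD2, CDKN1B, AXL and ID1 were taken from the widest peaks and the gene lists, and ELF4 and LAMB3 are the genes under the widest peaks whose 250 bases hold TGACTCA, at 1 of 3 listed starts of each gene.
DCBLD2, chr3:98901696-98901945, minus strand: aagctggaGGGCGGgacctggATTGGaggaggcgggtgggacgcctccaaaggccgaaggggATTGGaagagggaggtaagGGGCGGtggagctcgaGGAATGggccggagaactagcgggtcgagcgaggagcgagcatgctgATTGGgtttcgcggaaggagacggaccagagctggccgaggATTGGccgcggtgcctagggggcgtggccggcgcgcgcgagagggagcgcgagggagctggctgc
CDKN1B, chr12:12717118-12717367, plus strand: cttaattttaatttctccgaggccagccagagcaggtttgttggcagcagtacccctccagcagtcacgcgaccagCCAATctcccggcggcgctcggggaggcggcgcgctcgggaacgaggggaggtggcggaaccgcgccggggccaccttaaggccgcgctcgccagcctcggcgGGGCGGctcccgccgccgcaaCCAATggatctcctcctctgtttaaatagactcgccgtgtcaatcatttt
AXL, chr19:41218973-41219222, plus strand: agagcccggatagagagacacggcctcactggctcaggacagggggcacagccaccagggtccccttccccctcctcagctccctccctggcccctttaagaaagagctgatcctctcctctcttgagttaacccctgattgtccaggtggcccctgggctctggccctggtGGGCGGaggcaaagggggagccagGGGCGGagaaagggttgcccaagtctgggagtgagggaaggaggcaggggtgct
ID1, chr20:31605039-31605288, plus strand: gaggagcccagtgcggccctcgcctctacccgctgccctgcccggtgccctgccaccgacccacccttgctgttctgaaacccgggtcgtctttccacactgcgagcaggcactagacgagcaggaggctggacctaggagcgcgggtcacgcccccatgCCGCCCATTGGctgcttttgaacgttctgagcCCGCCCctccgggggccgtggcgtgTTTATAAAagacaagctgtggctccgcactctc
ELF4, chrX:130110498-130110747, minus strand: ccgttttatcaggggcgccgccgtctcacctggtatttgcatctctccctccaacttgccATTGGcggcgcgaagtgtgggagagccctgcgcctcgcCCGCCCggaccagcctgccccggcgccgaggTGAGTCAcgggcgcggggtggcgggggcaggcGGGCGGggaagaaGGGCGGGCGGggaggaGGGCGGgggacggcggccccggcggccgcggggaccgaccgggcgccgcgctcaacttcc
LAMB3, chr1:209651375-209651624, minus strand: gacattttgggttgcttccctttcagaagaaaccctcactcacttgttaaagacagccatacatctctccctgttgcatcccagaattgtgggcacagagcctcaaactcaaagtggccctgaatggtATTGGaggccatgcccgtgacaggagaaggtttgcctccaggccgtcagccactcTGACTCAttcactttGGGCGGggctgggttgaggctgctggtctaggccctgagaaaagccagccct
These promoters differed most in CpG content, given as observed over expected CpG, a ratio near 1 where CpG pairs are as frequent as the C and G content allows. It was 1.04 in DCBLD2, 1.04 in CDKN1B and 0.955 in ELF4, 0.709 in ID1, and only 0.165 in LAMB3 and 0.155 in AXL. The GC content of the same bases ranged from 54% in LAMB3 to 76% in ELF4. A CpG-poor promoter could thus be GC-rich, as in AXL with 64.4% GC. DCBLD2 held 4 matches to CCAAT and ID1 held 2 to TATAAA.

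Precursors of microRNAs, short RNAs that repress target messages through their seed, were also covered. Of 1562 microRNA hairpins, 11 touched a wide peak outside domains, which is 0.704% of hairpins, while 9.22% touched any peak. The mature sequences of 3 well-studied ones are shown, with bases 2 to 8, the seed, in capitals.
hsa-miR-21-5p: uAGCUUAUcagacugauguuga
hsa-miR-10a-5p: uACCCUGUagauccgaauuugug
hsa-miR-30a-5p: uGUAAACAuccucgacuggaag
The 3 seeds differ from each other. MIR21, an oncogenic microRNA whose primary transcript overlaps VMP1, lay under a peak of 10695 bp with 5.23-fold enrichment at chr17:59836219-59846913. MIR10A, which sits in the HOXB cluster, lay under a peak of 11173 bp and 8.88-fold at chr17:48575136-48586308 that also reached an end of HOXB4. MIR30A lay under a peak of 10490 bp and 4.26-fold that also overlapped the lncRNA gene LINC00472. The hairpin itself lay outside that gene. Others were MIR3193 under the ID1 peak, MIR1469 at NR2F2, MIR1288 in PIGL, MIR4258 at CKS1B and SHC1, MIR4492 in BCL9L, MIR4740 in BAHCC1 and MIR7845 at KLF7.

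Widths ran from 5003 to 26015 bp with a median of 6269 bp and quartiles of 5423 and 7898.5 bp. Of the 498 peaks, 146 reached 7500 bp, 49 reached 10000 bp and 8 reached 15000 bp. The fold enrichment deposited by the authors is the immunoprecipitated signal over the caller's local background, averaged along the peak. It ranged from 3.73 to 16.9 with a median of 6.80 (95% interval 6.51 to 6.99), against 4.36 over all listed peaks, 4.33 in peaks under 5000 bp outside domains and 6.68 in the 197 wide peaks inside domains. Among the wide peaks, 130 (26.1%) were enriched 8-fold or more, where the share over all listed peaks was 8.21%, and 40 (8.03%) were enriched 10-fold or more, against 2.93% of all peaks. The median −log10 q was 20.1 against 7.03 over all peaks. Fold and q come from the same signal that set the width, so these figures describe the members and support nothing further. Median fold was 6.78 in members under 7500 bp and 6.83 in those of 7500 bp or more, and the 3 widest members were not among the 12 of highest fold.

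**Figure D1:**
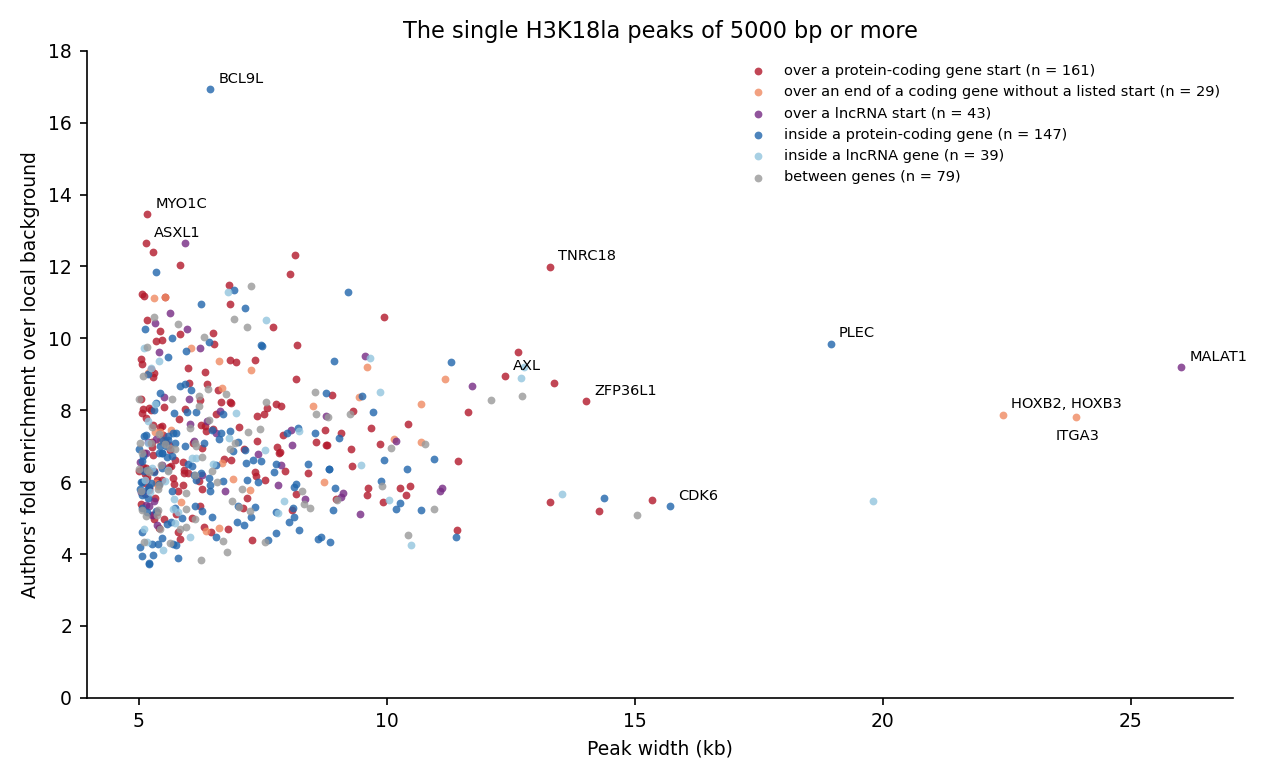
Width in kb (horizontal axis) and the authors' fold enrichment over local background (vertical axis) of the 498 wide peaks outside domains, 1 point per peak, coloured by place relative to genes. Most points lie between 5 and 10 kb at every fold, the peak over MALAT1 is the widest at 26015 bp and the peak inside BCL9L is the highest at 16.9-fold.

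The threshold cut through a continuous range. The 4 narrowest members were 5003 bp at chr5:74314020-74319022 between genes (6.38-fold), 5004 bp over the start of SH3RF2 (6.31-fold), 5012 bp at chr1:109820873-109825884 between genes (8.32-fold) and 5013 bp inside RARG, a retinoic acid receptor gene (6.92-fold). Peaks just below it were 4995 bp over the start of BEX3 (9.30-fold), 4982 bp over the starts of WDR81 and of MIR22HG, the host of a microRNA (13.0-fold) and 4982 bp between genes on chr12 (7.58-fold). Peaks on both sides of the threshold lay at starts and between genes.

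The widest peaks covered long noncoding RNA genes, a cell adhesion gene and a HOX cluster. The widest, 26015 bp at chr11:65476155-65502169 with 9.21-fold enrichment, lay over the starts of MALAT1, an abundant nuclear long noncoding RNA (lncRNA) known from lung cancer metastasis, ENEMAL and LINC02736. A further wide peak of 12762 bp and 9.20-fold lay on the same chromosome at chr11:65416168-65428929. It crossed an end of the neighbouring lncRNA gene NEAT1, the scaffold of nuclear paraspeckles, and lay partly outside that gene. The second widest, 23895 bp at chr17:50043649-50067543 (7.80-fold), reached an end of ITGA3, which encodes a laminin-binding integrin subunit, and the start of the lncRNA PICART1. The third, 22412 bp at chr17:48535209-48557620 (7.88-fold), reached ends of the homeobox genes HOXB2 and HOXB3 and the starts of HOXB-AS1 and HOXB-AS2. ITGA3 and the HOXB genes have no listed strand and start in the table used, so whether these peaks lie at the 5′ end was not determined. The fourth, 19793 bp and 5.47-fold on chr8, lay almost wholly inside the lncRNA gene LOC124902020, 424059 bp from MYC. The fifth, 18947 bp and 9.85-fold, lay inside PLEC, the gene of the cytoskeletal linker plectin.

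Among the next widest, the same mix of places recurred. A peak of 15700 bp and 5.32-fold lay inside CDK6, a cyclin-dependent kinase of the G1 phase, and a separate peak of 7530 bp and 7.88-fold lay over the CDK6 start. GCNT2, a glycosyltransferase gene, had a peak of 15341 bp (5.5-fold) over its start. DCBLD2, a membrane receptor gene, had 14280 bp (5.19-fold), and LAMB3, a laminin subunit gene, 13299 bp (5.45-fold). Enrichment was higher over the start of ZFP36L1, which encodes a protein that destabilises AU-rich messages, with 14019 bp and 8.25-fold. ELF4, an ETS family factor, had 13379 bp and 8.75-fold, and TNRC18 had 13293 bp and 12-fold. Peaks of similar width thus differed more than 2-fold in mean enrichment.

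The 12 members of highest fold were of mixed width, from 5145 to 13293 bp, and included the TNRC18 peak described above. The highest, 16.9-fold over 6447 bp at chr11:118908857-118915303, lay inside BCL9L, a coactivator of beta-catenin. The peak over the start of MYO1C, an unconventional myosin, reached 13.5-fold over 5169 bp. The lncRNA OLMALINC reached 12.7-fold over 5939 bp. ASXL1, a chromatin regulator, also reached 12.7-fold, over 5145 bp, and its −log10 q of 87.0 was the largest among the 498. The predicted gene LOC124905135 with the lncRNA LINC02939 reached 12.4-fold, the start of CCDC57 12.3-fold and the start of TNS2, a focal adhesion gene, 12-fold. A peak inside BCAR3 reached 11.8-fold, the start of ABR 11.8-fold, and the start of SREBF1, a factor that drives lipid synthesis, 11.5-fold. The twelfth, 11.4-fold over 7273 bp at chr21:45360713-45367985, lay between genes. The CCDC57 peak also overlapped SLC16A3, the gene of the lactate exporter MCT4.

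Positions were read from RefSeq starts for 15842 of 20037 protein-coding genes and 11461 of 18303 lncRNA genes. A start counted as covered when it lay inside the peak. Wide peaks lay over a coding start in 161 cases, 32.3% (28.2 to 36.6), where the share over all listed peaks was 27.5%. A further 29 (5.82%) reached an end of a coding gene without a listed start. Another 43 (8.63%) lay over a lncRNA start but no coding start. The rest were 147 (29.5%) inside a coding gene, 39 (7.83%) inside a lncRNA gene and 79 (15.9%) between genes. In these shares, here and below, inside stands for any overlap with the gene. Some of these peaks ran past an end of the gene, as at VMP1, or contained a whole gene, as at LOC105374118. A wide interval reaches more starts by its width alone. The place of the peak midpoint was therefore also recorded. It lay within 1000 bp of a coding start in 61 wide peaks (12.2%, 9.5 to 15.5), against 31% of all listed peaks.

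Outside domains, the midpoint lay within 1000 bp of a start in 25% of peaks under 1000 bp, 41.3% of peaks of 1000 to under 2000 bp, 36.8% of 2000 to under 3000 bp, 23.7% of 3000 to under 4000 bp and 15.7% of 4000 to under 5000 bp. Among wide peaks of 7500 bp or more it was 6.85% (3.33 to 12.2; n = 146), and in wide peaks inside domains 8.63% (n = 197). The share thus rose and then fell with width. Because the window is fixed at 1000 bp, a start covered by a narrow peak is near its midpoint by construction, while one covered by a wide peak need not be, so these shares do not compare centring between widths. Direct coverage of a start went from 40.1% at 1000 to under 2000 bp to 25.7% at 4000 to under 5000 bp, and stood at 32.3% in the wide peaks outside domains and 19.8% (14.5 to 26.1) in those inside domains. The intervals of the last 2 shares did not overlap. Peaks under 1000 bp had 13.6% over a start and 47.7% inside a coding gene.

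**Figure D2:**
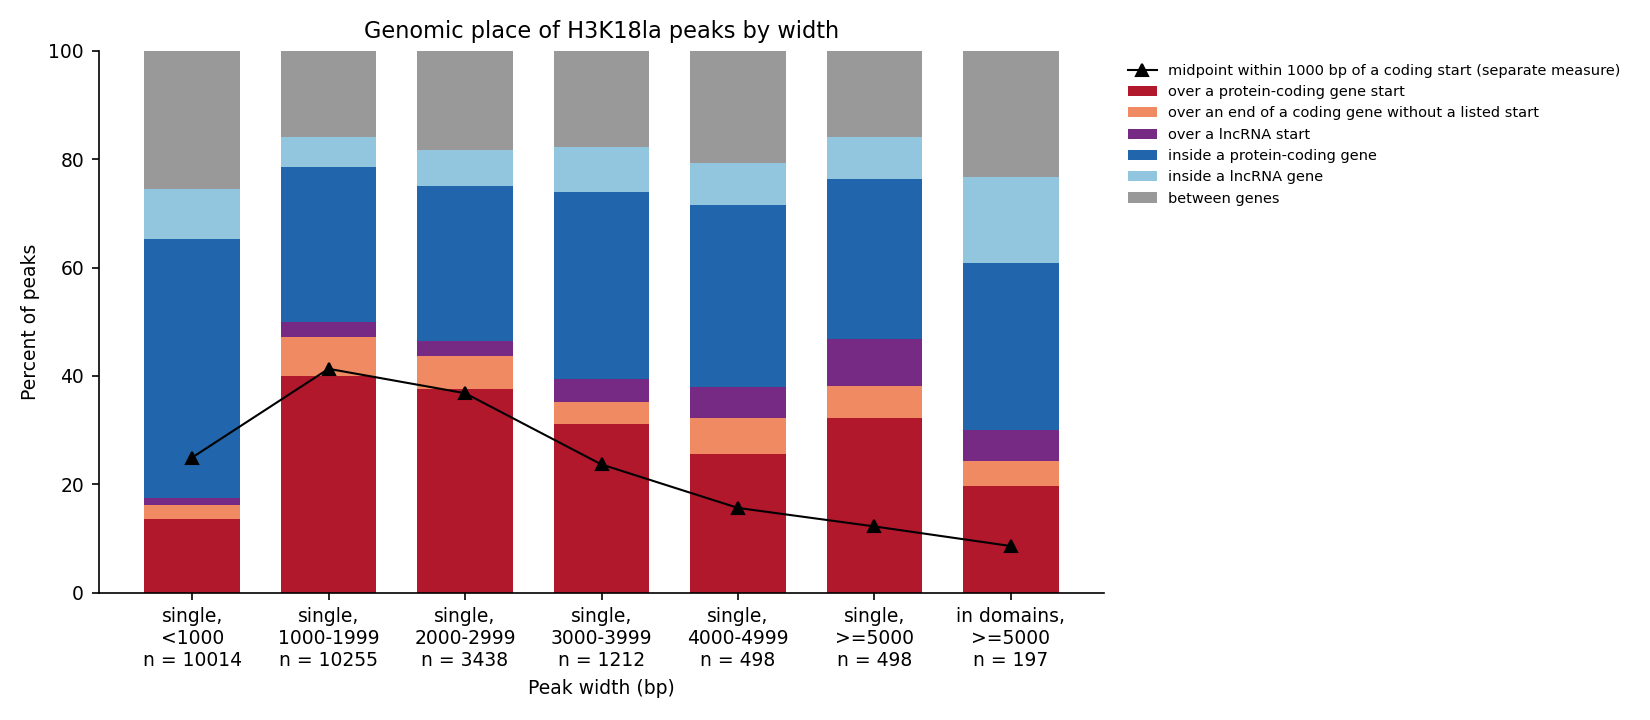
Percent of peaks (vertical axis) by place relative to genes, for classes of peak width in bp outside domains and for wide peaks inside domains (horizontal axis, with n), as stacked bars; black triangles give the percent whose midpoint lies within 1000 bp of a coding start. The triangles rise from 25% under 1000 bp and fall from 41.3% at 1000 to under 2000 bp to 12.2% at 5000 bp or more, while the share over a lncRNA start without a coding start (purple) rises to 8.63%.

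Starts of lncRNA genes, with or without a coding start, were covered by 89 wide peaks, 17.9% (14.6 to 21.5), where the share over all listed peaks was 7.62%. The share was 10.2% in peaks of 1000 to under 2000 bp, 13.1% in peaks of 4000 to under 5000 bp and 23.3% in the 146 peaks of 7500 bp or more. It was 9.64% (5.91 to 14.7) in wide peaks inside domains, whose widths were similar (median 6453 bp). Of the 161 peaks over a coding start, 43 (26.7%, 20.1 to 34.2) also covered a lncRNA start, against 17.4% of all listed peaks over a coding start, 28.9% at 3000 to under 4000 bp and 23.4% at 4000 to under 5000 bp. The wide peaks were thus near the next narrower classes. Examples were SPRY4 with SPRY4-AS1, FOSL2 with FOSL2-AS1, ENO1 with ENO1-AS1, SOCS3 with SOCS3-DT and ZNF516 with ZNF516-AS1 and ZNF516-DT. Median fold was 7.46 (6.53 to 8.63) at ends of coding genes without a listed start, 7.08 (6.81 to 7.55) over coding starts, 7.02 over lncRNA starts, 6.71 between genes, 6.47 inside lncRNA genes and 6.37 (6.04 to 6.62) inside coding genes. The intervals over coding starts and inside coding genes did not overlap.

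Most covered starts were those of 1 gene. Of the 161 peaks, 141 covered the start of 1 coding gene, 18 of 2 and 2 of 3, counting several starts of a gene once. The 20 over more than 1 gene were 12.4%, near the 11.3% of all listed peaks over a coding start. Both peaks over 3 genes lay in the histone clusters of chromosome 6, the wider being 10462 bp and 5.90-fold over H2AC4, H3C2 and H4C2, and the other 5511 bp and 4.97-fold over H2AC7, H2BC7 and H3C4. In all, 5 wide peaks covered the starts of 12 histone genes, which are short, closely spaced and expressed in S phase. Other pairs were CDKN1B, a cyclin-dependent kinase inhibitor, with APOLD1 (12646 bp, 9.61-fold), IER2 with STX10 (7349 bp, 9.41-fold) and CKS1B with SHC1 (6844 bp, 9.41-fold).

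For the 98 wide peaks over exactly 1 listed coding start, the spread on the 2 sides of that start was measured. A median of 54.6% of the peak lay downstream, on the transcribed side (95% interval 47.1 to 68.3), against 53.1% in the 3022 peaks of 1000 to under 2000 bp. As a group the wide peaks were placed about as evenly as the narrower ones, and the longer arm was downstream in 56 of 98 (57.1%, 46.7 to 67.1). Individual wide peaks were far less even than peaks of 1000 to under 2000 bp, and this was largely shared by the next narrower classes. The quartiles of the downstream share were 32.7% and 83%, against 43.0% and 62.7% in peaks of 1000 to under 2000 bp, with over 75% downstream in 35 wide peaks and under 25% in 20. The quartiles were 37.1% and 76.1% at 3000 to under 4000 bp and 32.0% and 74.9% at 4000 to under 5000 bp. In wide peaks inside domains they were 26.9% and 67.2% (n = 24).

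Genes illustrate both arms. DCBLD2 had 2417 bp upstream and 11863 bp downstream of its start, and ENO1 had 2363 bp and 6402 bp. SREBF1 leaned the other way, with 5150 bp upstream and 1669 bp downstream, and so did DDAH1 with 8859 bp and 2788 bp. The upstream arm at DDAH1, however, contained the whole of the neighbouring gene CCN1, so that peak cannot be assigned to DDAH1 alone. ID3 was nearly symmetric with 5596 bp and 5846 bp, and its whole gene of 1576 bp lay under the peak, as did the 1222 bp of ID1. Coverage of the gene was counted from the downstream arm only, so gene bases before the listed start were left out. Counted so, the gene was covered whole in 10 of the 98, of which 8 were among the 10 genes shorter than 5000 bp. HES7, whose listed start lies inside the gene, was also wholly under its peak but is not among these 10. The median gene length was 34963 bp, and the downstream arm came to a median of 7.19% of the gene's length. The plot of both arms shows a continuous range from upstream to downstream peaks with no separate classes.

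**Figure D3:**
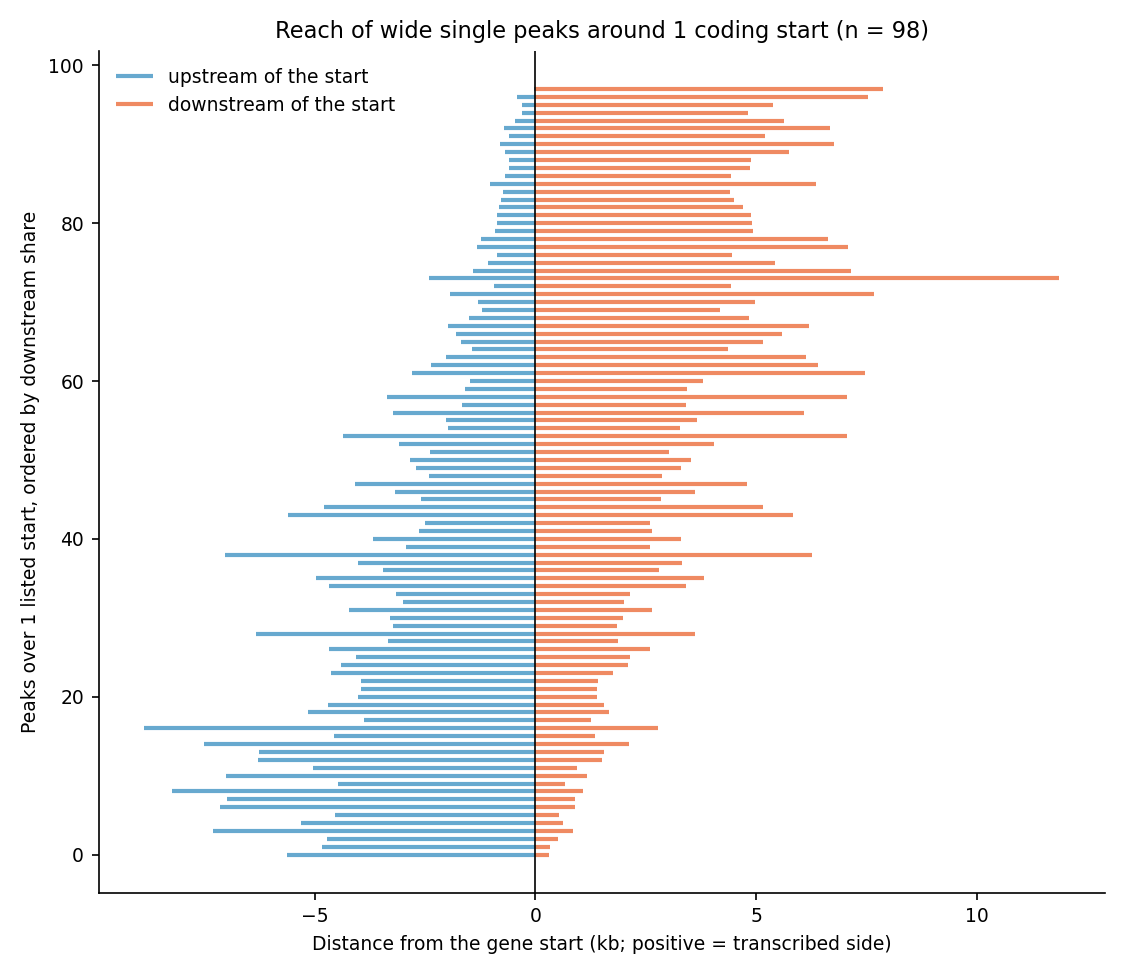
Reach of each of the 98 wide peaks over exactly 1 listed coding start, in kb from the start (horizontal axis, positive on the transcribed side), with peaks stacked in order of their downstream share (vertical axis, rank). Blue lines are the upstream arm and orange lines the downstream arm; the median downstream share is 54.6%, and 35 peaks lie more than 75% downstream.

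Wide peaks inside coding genes mostly lay far from listed starts, as did narrower peaks inside genes. In the 101 such genes with a listed strand there were 114 pairs of a gene and a peak, and the peak midpoint lay at a median of 50.6% of the gene's length (41.0 to 57.6) and 42984.5 bp from the nearest start before it. For the 3662 pairs with peaks of 1000 to under 5000 bp, these medians were 44.4% and 36563 bp. The first 25% of the gene held 24 of the 114 (21.1%, 14 to 29.7), against 29.5% of those 3662 pairs. A peak over a listed start was not placed in this class. The midpoint of a wider peak therefore had to lie farther from every listed start, so the lower share is partly built in. Of the 101 genes, 74 (73.3%, 63.5 to 81.6) also had some peak over a listed start, where the share over all genes with a listed start was 53.3% and in the genes of the narrower inside peaks 65.6%. The genes were long, with a median of 128890 bp over the 101 genes against 95713 bp over the 2295 genes of the narrower peaks. Examples were PXN, the focal adhesion gene of paxillin, with 11290 bp (9.34-fold), PDGFRB, a receptor tyrosine kinase gene, with 8035 bp (4.89-fold), and EGFR, a driver of lung cancer, with 6004 bp (6.51-fold).

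The 79 wide peaks between genes lay a median of 38540 bp from the nearest coding gene, 26 of them within 20 kb, 36 beyond 50 kb and 21 beyond 100 kb. The widest was 15054 bp at chr9:21674833-21689886 (5.08-fold), 112750 bp from MTAP, a methionine salvage gene beside CDKN2A. The next was 12718 bp at chr19:13161389-13174106 (8.39-fold), 6478 bp from IER2, whose start had the separate wide peak given above. A peak of 12108 bp at chr12:75974941-75987048 (8.28-fold) lay 38399 bp from PHLDA1, which had its own peak of 9601 bp. The nearest gene is given by distance only and need not be a target.

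Some loci held several wide peaks. Of the 498, 138 (27.7%) had another member within 100 kb, in 58 groups, 17 of which held at least 3. Among coding genes, 367 (1.83%) were touched by at least 1 wide peak, 23 by at least 2, 6 by at least 3 and 4 by 4. Those 4 were VMP1, an autophagy gene, with peaks of 5061 to 10695 bp summing to 35103 bp and 5.23 to 9.36-fold; TTC7A, with 5122 to 9495 bp and 7.09 to 11-fold; APBB2, with 5393 to 8923 bp and 4.29 to 6.04-fold; and RAD51B, a homologous recombination gene beside ZFP36L1, with 5563 to 7768 bp and 4.58 to 7.38-fold. Enrichment differed between these genes, and 3 of the 4 TTC7A peaks were above every RAD51B peak. The genes were long and held many peaks of any width, from 9 in the 134602 bp of VMP1 to 34 in the 863318 bp of RAD51B. The background of their 5 Mb bins, solved as described below, was 10.5 at RAD51B, 8.19 at VMP1, 6.45 at APBB2 and 5.17 at TTC7A. Matching shares for peaks of all widths are not given, so these counts do not show that wide peaks gather more than other peaks. RUNX1, a transcription factor of blood and epithelia, had 1 wide peak of 10262 bp over its listed start and 1 of 5348 bp elsewhere in the gene, and KLF7 had 2 wide peaks, both over listed starts.

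Genes were then read through 23 lists of pathways, families and cell markers. A gene counted when a wide peak outside domains covered a listed start or, where none is listed, an end. Over all protein-coding genes, 224 of 20037 (1.12%) met this, 181 of the 15842 with a listed start (1.14%) and 43 of the 4195 without (1.03%), while 10102 (50.4%) had any peak placed that way. The lists were written with some of these widths known, among them AXL, ZFP36L1, ITGA3, MYC, HOXB2 and HOXB3, so the counts below are descriptions and not independent evidence. Over all lists, 30 of 1361 genes (2.20%) had a wide peak, and 28 of 381 (7.35%) when the zinc finger, olfactory receptor and ribosomal lists were left out.

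The Hippo list, of regulators and targets of the transcription coactivators YAP and TAZ, held 4 of 15 genes (26.7%, 7.79 to 55.1), and all 15 had some peak. They were the receptor tyrosine kinase AXL (12378 bp, 8.94-fold, −log10 q of 73.6), the secreted matrix proteins CCN1 (within the DDAH1 peak of 11647 bp, 7.96-fold) and CCN2 (6863 bp, 6.62-fold), and the scaffold AJUBA (6845 bp, 11-fold). The immediate early list held 5 of 27 (18.5%, 6.30 to 38.1). These were ZFP36L1, SPRY4, an inhibitor of growth factor signalling (8786 bp, 7.02-fold), IER2 (7349 bp, 9.41-fold), the AP-1 subunit FOSL2 (7131 bp, 6.91-fold) and the proto-oncogene MYC (6612 bp, 4.72-fold). MYC had the lowest fold of the 5.

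Of the list of tumour suppressors and oncogenes, 4 of 22 (18.2%, 5.19 to 40.3) had a wide peak: CDKN1B, CDK6, the transcriptional repressor BCL6 (5920 bp, 6.25-fold) and cyclin D1, CCND1 (7273 bp, 9.13-fold). Of the TGF-beta and BMP list, 3 of 19 (15.8%, 3.38 to 39.6) did, namely ID3 (11442 bp, 6.59-fold) and ID1 (9303 bp, 6.45-fold), inhibitors of helix-loop-helix factors that BMP signalling induces, and the corepressor TGIF1 (8800 bp, 7.03-fold). Growth factor receptors had 2 of 18, AXL and the collagen receptor DDR1 (5491 bp, 7.30-fold). AXL is on both this and the Hippo list. HOX genes had 3 of 39, HOXB2, HOXB3 and HOXB4, of which HOXB2 and HOXB3 share 1 peak. All 3 were counted by an end, none by a listed start, and by midpoint within 1000 bp of a listed start the HOX count was 0 and that of growth factor receptors 1.

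Glycolysis, which makes the lactate that the mark draws on, had 2 of 25 genes (8%, 0.984 to 26.0), the glycolytic enzymes ENO1 (8765 bp, 7.45-fold) and PKM (6838 bp, 8.22-fold), while 23 of the 25 had some peak. The CCDC57 peak crossed an annotated end of the lactate exporter gene SLC16A3 but none of its listed starts. The list of acetyltransferases, deacetylases and bromodomain readers, which holds enzymes proposed to add or remove lactylation, had 0 of 24, with an interval up to 14.2%, although 23 had some peak. Ribosomal protein genes had 0 of 79 (up to 4.56%), although 66 had some peak. In these 2 lists the mark was listed at nearly all or most genes but not in a wide peak outside domains. The share over all protein-coding genes was only 1.12%, which lies inside the intervals of these 2 lists and of the glycolysis list. The counts therefore do not set any of these lists apart from other genes.

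Actin and adhesion genes had 2 of 33, TPM1 (7873 bp, 8.11-fold) and ITGA3, and a wide peak inside CD44, ITGA6, MYH9, PLEC and PXN besides. The ITGA6 peak had the lowest fold of all members, 3.73 over 5201 bp. NF-kB and stress genes had 1 of 19, the redox enzyme TXNRD1 (7906 bp, 7.31-fold). The KLF list had 1 of 18 (KLF7), the FOX list 1 of 51 (FOXO3, 5762 bp and 5.11-fold) and the ZNF list 2 of 509, 0.393% (0.0476 to 1.41), ZNF367 and ZNF516. Olfactory receptors, silent in most tissues, had 0 of 392 and SOX genes 0 of 19.

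Markers of cell type had few wide peaks, as did all protein-coding genes (1.12%), and lists of this size say little about so low a share. Epithelial genes had 1 of 15, KRT18, whose peak of 6892 bp also overlaps its partner keratin gene KRT8. Mesenchymal genes had 0 of 14, with some peak at 9. Lung lineage genes had 0 of 16 and some peak at 3. Neuroendocrine, lymphoid and myeloid, fibroblast and endothelial markers had 0 of 5, 0 of 5, 0 of 6 and 0 of 3, with no peak of any width at a start or counted end. Inside the gene, PDGFRB of the fibroblast list and PECAM1 of the endothelial list each held a wide peak (PECAM1 5117 bp, 7.30-fold).

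**Figure D4:**
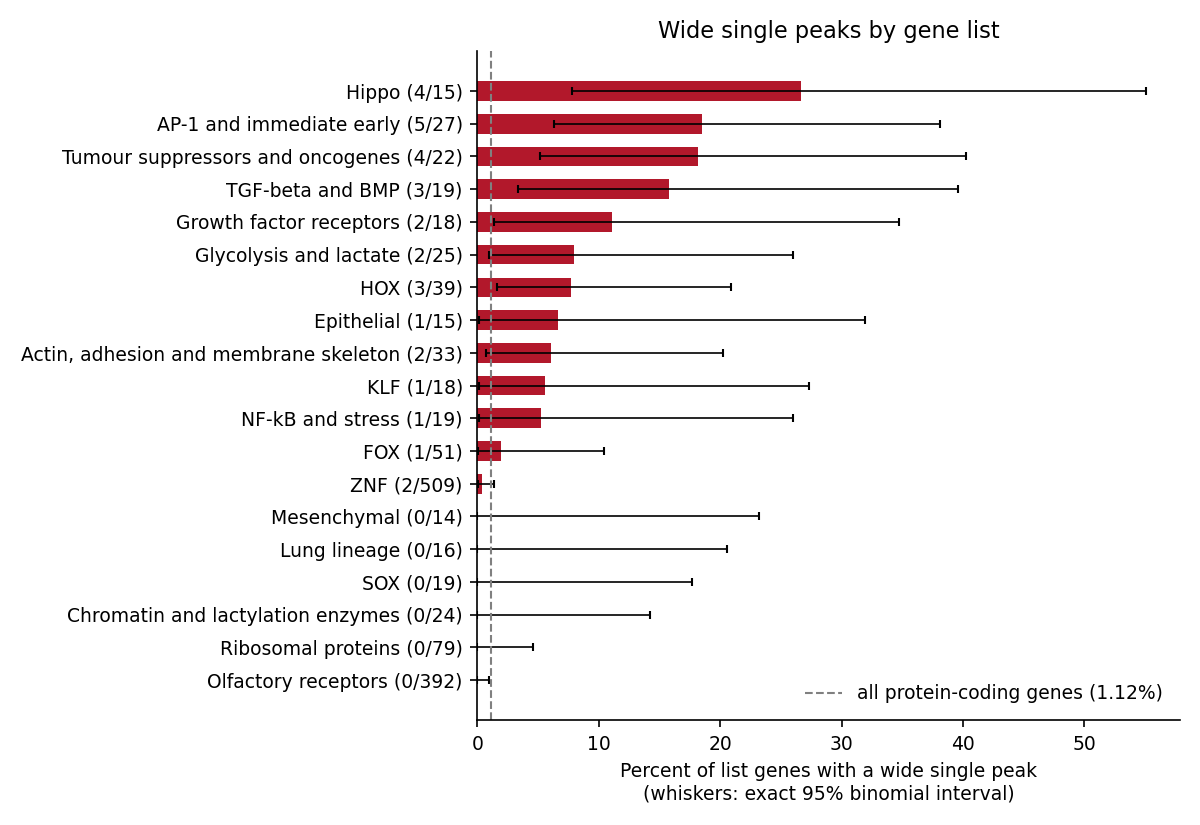
Percent of the genes of each list with a wide peak outside domains over a listed start or, with none listed, over an end (horizontal axis); bars are the observed share, whiskers exact 95% binomial intervals, labels give genes counted over list size, and the dashed line is 1.12% of all protein-coding genes. Lists of under 14 genes are not drawn. The intervals of the Hippo, AP-1, tumour suppressor, TGF-beta and BMP, growth factor receptor and HOX lists lie above the line. HOX genes are counted by gene ends only, and the HOX count is 0 by midpoint. The lists were written with some widths known, among them AXL, ZFP36L1, MYC, HOXB2 and HOXB3. HOXB2 and HOXB3 share a peak, and AXL is on both the Hippo and the growth factor receptor list. The intervals are therefore descriptions and no test of enrichment. In 6 lists no gene has a wide peak.

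Promoter sequence differed with the width of the peak above it. The whole listed window of 300 bases, 250 before and 50 after a start, was used, and 1 start per gene, the first in the direction of transcription, so that several starts of a gene did not count repeatedly. It gave 156 genes under wide peaks outside domains and 5589 under peaks of 1000 to under 3000 bp. Observed over expected CpG had a median of 0.797 (0.761 to 0.827) under wide peaks, 0.850 (0.828 to 0.863) under peaks of 3000 to under 5000 bp, 0.878 (0.873 to 0.884) under peaks of 1000 to under 3000 bp and 0.442 under no peak. The share with a ratio below 0.5 was 18.6%, 10.8%, 4.53% and 53.6% in the same order. Wide peaks thus lay over CpG-rich promoters on the whole, with more CpG-poor ones, such as that of AXL, among them. The median GC content of 64.8% (62.7 to 68.0) was less distinct from the 67% under peaks of 1000 to under 3000 bp.

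Short motifs moved in different directions. TATAAA was found in 16.0% (10.6 to 22.7) of the 156 promoters, against 7.98% under peaks of 3000 to under 5000 bp, 3.97% (3.48 to 4.52) under peaks of 1000 to under 3000 bp, 14.8% under no peak and 9.75% of all promoters. TGACTCA, the AP-1 motif, was found in 7.69% (4.04 to 13.1), against 3.68%, 2.56% (2.16 to 3.01), 4.47% and 3.62% in the same order. CCGGAAG, the ETS motif of many housekeeping promoters, was less frequent, with 10.3% (5.98 to 16.1) against 12.7%, 21.7% (20.6 to 22.8), 7.47% and 14.2%. The TEAD motif GGAATG was found in 16.7% (11.2 to 23.5) against 9.61%, 9.80% (9.04 to 10.6), 13.5% and 11.8% in the same order. For each of these motifs the share under no peak lay inside the interval under wide peaks. In the 37 genes under wide peaks inside domains, the shares were 18.9% (7.96 to 35.2) for TATAAA, 5.41% for TGACTCA, 8.11% for CCGGAAG and 13.5% for GGAATG.

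For the other 5 motifs the shares under wide peaks and under peaks of 1000 to under 3000 bp were 35.9% and 35.7% for CCAAT, 69.2% and 76.5% for GGGCGG, 7.05% and 11.3% for CACGTG, 8.97% and 12.2% for TGACGT, and 6.41% and 7.69% for GCATGCG. The interval for GGGCGG under wide peaks ran from 61.4 to 76.4, its upper end just below the share under the narrower peaks. Over all 265 listed starts under wide peaks, starts of the same gene included, TGACTCA was found in 27 (10.2%), in 24 genes under 24 peaks. Besides ELF4 and LAMB3 these included ANXA2, a membrane-binding annexin (10421 bp, 7.61-fold), FOSL2 itself, BCL6, SHC1, MT2A, a metallothionein, and MYO1C. A match is a run of letters and no measurement of binding. CpG content and motifs vary together across promoters, and their separate parts were not tested.

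**Figure D5:**
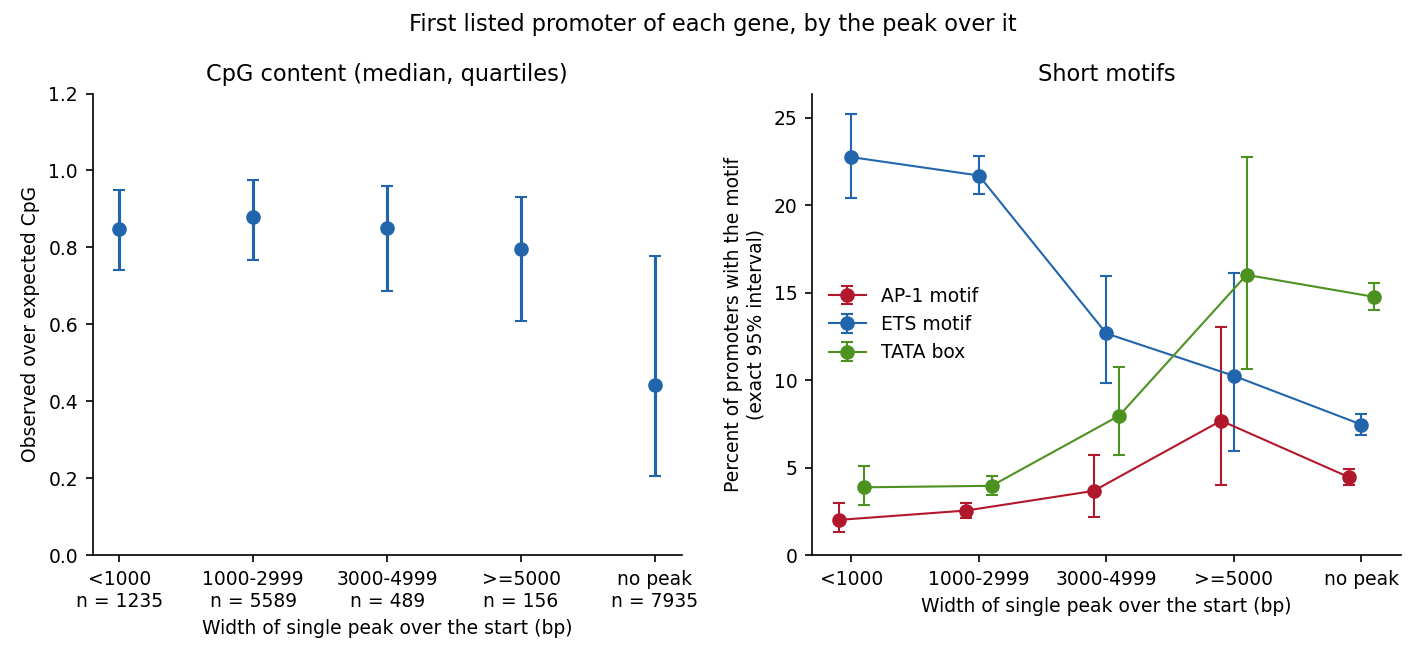
Left, observed over expected CpG in the 300-base promoter (vertical axis; points are medians, bars quartiles) by the width in bp of the peak over the first listed start (horizontal axis, with n genes). Right, percent of the same promoters with the AP-1, ETS or TATA motif (vertical axis; bars are exact 95% binomial intervals; lines only join points): under wide peaks TATA reaches 16.0% and AP-1 7.69%, while ETS stands at 10.3% against 21.7% at 1000 to under 3000 bp.

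Wide peaks were unevenly spread over the genome. They made up 2.63% of the peaks of chromosome 17, with 39, 2.52% on chromosome 15 and 2.39% on chromosome 12, and 0.931% on chromosome 16 and 0.770% on X, with 6. The control background was read beside this. A background value in the caller's units was solved from each peak's fold and −log10 p and its median taken in bins of 5 Mb. With the bins split into 4 near-equal groups from lowest to highest background, wide peaks outside domains made up 1.15%, 1.55%, 1.92% and 2.08% of all peaks. Wide peaks inside domains rose from 0.263% to 0.983%. By chromosome the order was mixed. Chromosomes 13 and X, with the lowest median backgrounds (4.43 and 4.52), had low shares of 1.21% and 0.770%. Chromosome 15, with a low background of 5.08, had 2.52%, and chromosome 19, with the highest (6.93), had 1.35%. On chromosome 19 the rule left out 17 wide peaks inside domains, beside the 20 outside. The median fold of the wide peaks outside domains was 6.34, 6.51, 7.05 and 6.81 in the same groups. Their solved background had a median of 6.52 against 5.58 over all peaks, and the part of background in their width was not tested.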

How the data were processed

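Chromatin of H1299 cells was immunoprecipitated with anti-H3K18la and sequenced beside an input, 1 library each. Per the submitters' processing notes, bcl2fastq 2.17, cutadapt 1.18, Trimmomatic 0.38, Bowtie2 2.3.4.1, Picard, MACS2 (2.1.2 and 2.1.0 are both listed) and ChIPseeker were used with hg38. Caller settings, peak threshold and aligner settings are not given in the sources used here. The sample labels name an input and the series' design text an IgG group, and which served as the caller's control was not settled. Peak names in the list start with the letters NC, for which no label gives a reason.

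The deposited list, in MACS2's broad peak format, gives each peak's fold enrichment as a ratio to the caller's local background. The authors' significance of each peak is a p-value and a q-value, deposited as −log10, with a largest q of 0.0472. The deposited score was 10 times −log10 q without its decimals in all but a few peaks and was not used. Depth is unknown, reads are not at hand, and how reads matching near-identical copies such as histone genes were placed was not examined. A broad peak's fold is an average over its length.

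Widths are end minus start, and coordinates are printed counting from 1. Peaks within 12000 bp were joined, runs of 5 or more left out, and peaks of 5000 bp or more kept. Starts came from the RefSeq GRCh38.p14 promoter table (22175 starts of 15842 of 20037 coding genes, matched by gene ID). Gene ends served for coding genes without a listed start. The table used has no exons, so exonic and untranslated positions were not assigned. Shares have exact (Clopper-Pearson) 95% intervals and medians order-statistic 95% intervals. Background was solved from fold and p under a Poisson model, and includes any pseudocount of the caller. Python 3.11.15, pandas 2.3.3, numpy 2.4.6, scipy 1.17.1 and matplotlib 3.10.9 were used. The code was checked on simulated data: 2856 of 2856 planted starts and 2000 of 2000 backgrounds were recovered. The simulated backgrounds came from the same Poisson formula that was then solved. Their recovery checks the calculation only and cannot show that the solved background is right for real peaks, whose fold is an average.

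The members and lists were chosen with earlier results of these data known. Named genes were those under the 15 widest members, the 12 of highest fold and up to 5 per list, the widest members away from coding genes, those over most starts and those at the threshold. The lncRNA, microRNA, histone and gene-body examples, the loci with several members, the examples of the arms and the ELF4 and LAMB3 promoters were chosen after their values were seen. A peak at the threshold and a microRNA locus are not reported here.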

Additional observations from a re-analysis of the deposited data

How the results depend on the processing

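The number of wide peaks outside domains depended on the rule: it was 996 with a minimum width of 4000 bp, 283 with 6000 bp, 314 with a joining gap of 25000 bp and 293 when runs of 3 or more peaks were left out. It stayed within 1.5 times of 498 with a gap of 6000 bp (597), with domains kept (695) and with −log10 q of at least 10 (450). The share over a coding start was 12.2% by midpoint and 38.2% with the ends of genes without a listed start added, and moved less than its interval under the other alternatives. Median fold was 6.49 at 4000 bp and 7.01 at −log10 q of at least 10. The downstream share was 46.2% when each start of a gene counted, so the longer side changed. Genes with a wide peak at a listed start numbered 64 by midpoint, 326 at 4000 bp and 106 at 6000 bp, against 181. List genes numbered 12 by midpoint, 47 with domains kept and 46 anywhere in the gene, against 30, and 22 with listed starts only, an alternative added after the data were seen. Medians of promoter GC and CpG moved less than their intervals at both other widths. With 1 library, no replicate could be left out. No paired analysis was possible because each group holds 1 library. The unknown depth limits every statement that a peak is not listed.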

Other observations

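Among lncRNA genes, 188 were touched by at least 1 wide peak outside domains and 7 by at least 2. PVT1, a lncRNA gene beside MYC, held 2, of 6162 bp (6.67-fold) and 5690 bp (5.26-fold). LINC-PINT, a p53-responsive lncRNA gene, was touched by 1 of 5918 bp (6.35-fold), which also lay over a start of the coding gene MKLN1. MIR31HG had 1 of 5476 bp (6.48-fold) and LUCAT1, a lncRNA gene linked to smoking and lung cancer, 1 of 5127 bp (5.66-fold). These 4 lncRNA genes were picked after their values were seen.

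A few loci gathered wide peaks over a wider span. At TNRC18, FBXL18 and FSCN1, the last encoding the actin bundler fascin, 4 wide peaks lay within 181946 bp of chromosome 7, with 5.45 to 12-fold enrichment. Around PLCB4, a phospholipase gene on chromosome 20, 4 lay within 60363 bp, with 4.70 to 8.63-fold enrichment. Around DCBLD2, 3 lay within 97061 bp, of 10194 to 14280 bp and 5.19 to 7.14-fold.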
